A study of Mus musculus with 27 samples.

Results

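The genes described here are the striatal dopamine receptors Drd1 and Drd2 and the genes beside them in the mouse genome: Sfxn1 next to Drd1, and Ankk1, Ttc12 and Ncam1 next to Drd2. They were chosen by symbol, and every probe set of the array annotation that names exactly 1 of these symbols was taken, which gave 13 probe sets for 5 of the 6 genes among 18194 symbols on the array. No probe set of that annotation carries Ankk1, which was not analysed here. Of the 13 probe sets, 10 passed the filter for testing (above 6 on the log2 scale in at least 3 of 27 arrays): both for Drd1, both for Sfxn1, the single ones for Drd2 and Ttc12, and 4 of 7 for Ncam1.

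Polysome-bound RNA came from the striatum of males, 2 to 5 months old, and was purified by translating ribosome affinity purification (TRAP), in which a GFP-tagged ribosomal protein (L10a-GFP) is pulled down from the neurons that express it. Arrays with the tag from Drd1-TRAP are called D1 arrays (13) and those with the tag from the D2 transgene D2 arrays (14). The labels give D1 mutants as Drd1-TRAP, Drd1-Cre, G9a fl/fl (4 cocaine and 3 saline), D1 controls as Drd1-TRAP, G9a fl/fl (4 cocaine and 2 saline), D2 mutants as Drd-TRAP, Drd2-Cre, G9a fl/fl (4 cocaine and 3 saline) and D2 controls as Drd2-TRAP, G9a fl/fl (4 cocaine and 3 saline). The floxed G9a allele (gene Ehmt2, which encodes a histone methyltransferase) was homozygous in each group, on a mixed C57BL/6 and 129/Sv background. The injections, 8 in number, gave cocaine (20 mg/kg/day) or saline, and RNA was collected 2 h later. Controls had no Cre transgene, so the loss of G9a and the presence of the Cre transgene cannot be told apart in mutants. The labels call the transgenic strain a BAC line, that is, one made with a bacterial artificial chromosome, a large genomic clone that can carry genes next to the one it was chosen for. The extent of these clones is not given in the sources used here. Transcripts of a transgene copy and of the native gene share these probe sets and cannot be told apart, and the tagged cell type and the tagging transgene change together between D1 and D2 arrays.

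Dopamine acts on the projection neurons of the striatum through D1 receptors, which couple to stimulatory G proteins and raise cyclic AMP, and D2 receptors, which couple to inhibitory G proteins and lower it. Neurons of the direct pathway mainly carry D1 receptors and those of the indirect pathway mainly D2 receptors, which cholinergic interneurons and dopamine neurons carry as well. Among the neighbours, Sfxn1 encodes a mitochondrial carrier that transports serine, Ncam1 a neural cell adhesion molecule, Ankk1 a protein with ankyrin repeats and a kinase domain, and Ttc12 a tetratricopeptide repeat protein needed in humans for the assembly of ciliary dynein arms.

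The promoter windows are shown for the receptors and for the neighbours that differed in the receptor's direction between D1 and D2 arrays. The sequences are RefSeq's (build GRCm38.p6), from 250 bases before the start to 50 after it, 5′ to 3′ on the gene's own strand. Windows were found for 4 of the 6 genes. Capitals mark matches on either strand to the GC box, spelled GGGCGG, or to the box spelled CCAAT. The windows lie at chr13:54055609-54055908 (minus strand) for Drd1, chr13:54071595-54071894 (plus strand) for Sfxn1, chr9:49340153-49340452 (plus strand) for Drd2 and chr9:49486176-49486475 (minus strand) for Ttc12.
Drd1: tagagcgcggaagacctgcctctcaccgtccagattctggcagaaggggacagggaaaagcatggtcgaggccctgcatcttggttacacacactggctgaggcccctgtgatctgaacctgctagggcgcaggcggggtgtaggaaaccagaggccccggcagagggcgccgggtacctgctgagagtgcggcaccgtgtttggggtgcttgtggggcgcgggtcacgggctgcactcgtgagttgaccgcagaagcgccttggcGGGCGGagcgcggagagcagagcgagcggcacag
Sfxn1: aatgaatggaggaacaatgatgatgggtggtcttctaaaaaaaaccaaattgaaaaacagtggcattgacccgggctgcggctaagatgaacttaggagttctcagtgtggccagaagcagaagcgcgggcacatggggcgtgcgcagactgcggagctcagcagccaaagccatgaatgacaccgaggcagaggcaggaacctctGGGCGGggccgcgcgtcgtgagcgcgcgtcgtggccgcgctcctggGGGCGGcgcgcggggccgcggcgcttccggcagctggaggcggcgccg
Drd2: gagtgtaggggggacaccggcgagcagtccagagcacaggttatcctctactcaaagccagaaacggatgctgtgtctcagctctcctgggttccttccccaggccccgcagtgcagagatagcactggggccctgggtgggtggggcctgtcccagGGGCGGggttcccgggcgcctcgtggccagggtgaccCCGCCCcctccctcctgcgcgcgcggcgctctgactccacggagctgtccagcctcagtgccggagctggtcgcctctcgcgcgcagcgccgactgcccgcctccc
Ttc12: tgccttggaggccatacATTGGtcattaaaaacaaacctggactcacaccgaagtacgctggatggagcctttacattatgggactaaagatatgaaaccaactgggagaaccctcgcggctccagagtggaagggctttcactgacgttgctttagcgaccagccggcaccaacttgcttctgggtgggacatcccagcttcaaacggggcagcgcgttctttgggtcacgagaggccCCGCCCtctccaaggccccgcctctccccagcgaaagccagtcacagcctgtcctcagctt
Drd1 and Sfxn1 start 16.2 kb apart and Drd2 and Ttc12 145.8 kb apart, each pair on opposite strands. The GC box was matched in the window of each of these 4 genes and in 35.7% of 32851 mouse promoter windows. The CCAAT box was matched in the Ttc12 window and in 37.4% of windows. The TATA box, spelled TATAAA, was not matched in these 4 windows on either strand, and 13.6% of all windows held it. The cyclic AMP response element, spelled TGACGTCA, was not matched in them either, and 1.8% of all windows held it. Drd1 has a second RefSeq window, chr13:54054731-54055030 (minus strand), with 1 match to the GC box. GC content was 65.7% for the Drd1 window shown, 63.3% for Sfxn1, 70.3% for Drd2 and 56.3% for Ttc12, against a median of 52.7% over the windows.

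Values are log2 RMA values, and the weakest correlation that each array had within its own group lay between 0.987 and 0.996. Ehmt2, the targeted gene, fell in both mutants, by a log2 difference of -1.79 in D1 and -1.82 in D2 arrays (limma, adjusted p = 1.22e-09 and 1.21e-10), with no overlap of mutant and control arrays in either type. Of the markers of the tagged cell types, 6 of 6 tested D1 neuron markers were higher in D1 than in D2 controls. In the same contrast, 4 of 4 tested D2 neuron markers were lower, where 25.1% of the 22530 tested probe sets were called. Of the D1 neuron markers, Ebf1 passed the filter through D1 arrays alone, so its call follows in part from that filter. In 1 array, D2 mutant cocaine replicate 4, the title gives a mutant and the source name a control. Its Ehmt2 value was 8.96, against 8.68 to 9.38 in the other D2 mutants and 10.67 to 11.01 in D2 controls, so it was kept as a mutant. It stood apart in the markers of dopamine neurons: the dopamine transporter Slc6a3 was at 9.52 (other 26 arrays 4.72 to 5.89), the vesicular transporter Slc18a2 at 7.36 (3.42 to 4.29), Th, which makes the dopamine precursor, at 9.54 (5.85 to 8.10) and Ddc at 10.63 (6.25 to 8.86). Calls without this array were compared in D2 mutants against D2 controls and in D1 against D2 mutants. The comparison took the tested probe sets of the 6 genes, and 1 probe set per gene for their neighbours and the lists below. No call changed other than that of Clic6, a choroid plexus marker. Values without this array stand beside the receptor, Ttc12, Th and Ddc results in D2 mutants. Ttr, a choroid plexus transcript, was above 9.5 in 3 arrays: D1 mutant saline replicate 3 (12.36), D1 control cocaine replicate 3 (9.67) and D2 control cocaine replicate 3 (11.40).

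Drd1 mRNA was abundant in D1 arrays and clearly present in D2 arrays too, whereas Drd2 mRNA was near the floor of the filter in D1 arrays. Among controls, Drd1 probe set 1456051_at had a lowest, median and highest value of 12.12, 12.60 and 12.69 in D1 arrays, against 9.71, 9.79 and 10.50 in D2 arrays. Its second probe set, 1455629_at, had 12.15, 12.53 and 12.65 in D1 controls, against 8.81, 9.18 and 9.67 in D2 controls. Both probe sets placed the 6 D1 controls above the 7 D2 controls. The log2 difference (D1 minus D2) was 2.60 ± 0.12 (SE) for 1456051_at and 3.28 ± 0.11 for 1455629_at, or 6.05-fold and 9.74-fold (limma, adjusted p = 1.78e-14 and 3.45e-17). The probe sets of 1 gene thus gave different sizes for the same comparison. Drd2 (1418950_at) had 6.33, 6.83 and 7.05 in D1 controls, against 12.94, 13.16 and 13.60 in D2 controls. It was lower in D1 arrays by 6.50 ± 0.12, or 90.2-fold (adjusted p = 1.53e-22), and the groups did not overlap. The D1 values lay near the floor and there were no detection calls, so the size of this fold is uncertain. In this contrast 6 of the 10 probe sets tested here were called, against the 25.1% of the array. Markers of other cells differed in it too. Both tested cholinergic markers, Lhx8 and Slc18a3, were lower in D1 controls and had passed the filter through D2 arrays alone. Lower too were 3 of 4 tested oligodendrocyte markers and 1 of 2 tested dopamine neuron markers. Of the tested astrocyte markers, 2 of 5 were higher, while 0 of 2 microglia and 0 of 3 choroid plexus and ependyma markers were called. The mean over the 6 cholinergic markers ran from 4.65 to 4.75 in D1 controls, against 5.15 to 5.61 in D2 controls, with the defining marker Chat under the floor in both. The oligodendrocyte mean ran from 7.67 to 8.06 in D1 controls, against 7.60 to 8.50 in D2 controls, and the astrocyte mean from 7.22 to 7.82 in D1 controls, against 6.60 to 7.20 in D2 controls. Their part in the receptor differences was not tested.

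The nearest analysed neighbour of each receptor differed between D1 and D2 controls in the receptor's direction. Sfxn1 probe set 1417560_at had 12.63, 12.92 and 13.19 in D1 controls, against 10.03, 10.16 and 10.43 in D2 controls. The second Sfxn1 probe set, 1417559_at, had 11.76, 12.14 and 12.62 in D1 controls, against 9.31, 9.60 and 9.84 in D2 controls. The D1 arrays lay above the D2 arrays in both, by 2.71 ± 0.08 and 2.60 ± 0.10 (6.53-fold and 6.08-fold; adjusted p = 1.22e-17 and 8.81e-16). Ttc12 (1435211_at) had 4.88, 5.10 and 5.59 in D1 controls, against 11.49, 11.75 and 12.11 in D2 controls. All 13 D1 arrays lay under the floor of 6, a filter set here and not a detection call, so the Ttc12 fold is a bound: D1 controls were at least 55.9-fold lower than D2 controls against that floor. The fitted difference was -6.69 ± 0.13 (adjusted p = 7.4e-22). Ttc12 passed the filter through D2 arrays alone, so its call follows in part from that filter. Ncam1, the next gene after Ttc12, did not follow this pattern: its 4 tested probe sets differed by -0.14 to 0.02, the lowest adjusted p was 0.33, and D1 and D2 controls overlapped in each.

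**Figure D1:**
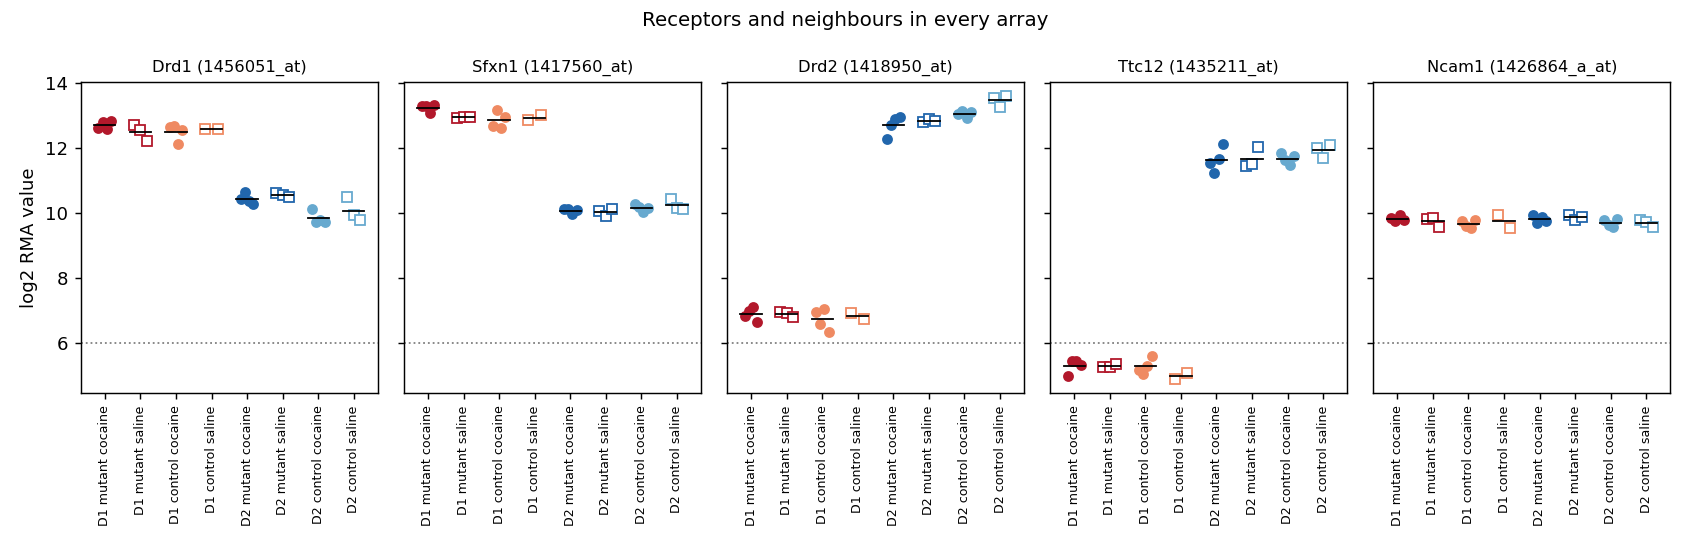
Log2 RMA value (vertical axis) of the reference probe set of each gene in every array, by group (horizontal axis). Filled circles are cocaine arrays, open squares saline arrays, black lines group means, and the dotted line the floor of 6; Drd1 and Sfxn1 are high in D1 arrays, Drd2 and Ttc12 in D2 arrays, and Ncam1 overlaps between them.

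Between mutants, the receptors and neighbours were placed the same way. Drd1 had 12.23, 12.62 and 12.85 (1456051_at) in D1 mutants, against 10.29, 10.49 and 10.65 in D2 mutants, a difference of 2.11 ± 0.11, or 4.32-fold (adjusted p = 2.24e-13). Its probe set 1455629_at gave a larger difference, 2.74 ± 0.10, or 6.68-fold (adjusted p = 3e-16). Drd2 had 6.62, 6.91 and 7.10 in D1 mutants, against 12.28, 12.83 and 12.96 in D2 mutants, a difference of -5.90 ± 0.11 (adjusted p = 3.08e-22). Sfxn1 was higher in D1 mutants by 3.05 ± 0.08 and 2.61 ± 0.10 by its probe sets 1417560_at and 1417559_at. Ttc12 was at least 50.4-fold lower in D1 than in D2 mutants against the floor. In Ncam1 1 probe set was called, 1450437_a_at, which was lower in D1 mutants by 0.44 ± 0.09 (adjusted p = 0.000579) with overlapping arrays (6.70 to 7.34 in D1 mutants, 7.30 to 7.64 in D2 mutants). In all, 7 of the 10 tested probe sets were called between mutants, against 37.9% of the array. Among tested markers of other cells, 4 of 4 of oligodendrocytes, 2 of 2 cholinergic and 2 of 2 of dopamine neurons were lower in D1 mutants. Of choroid plexus and ependyma markers 1 of 3 was lower, and 0 of 5 astrocyte and 0 of 2 microglia markers were called. The part of these cells in the receptor differences was not tested. Ncam1 1426865_a_at was called when D2 mutant cocaine replicate 3 (6.44, against 7.52 to 7.83 in its group) was left out, at -0.33 (adjusted p = 0.00895). Ncam1 1450438_at, at -0.15 (adjusted p = 0.0922), was called without D1 mutant saline replicate 3 (-0.19, adjusted p = 0.0496) or without D2 mutant saline replicate 3 (-0.20, adjusted p = 0.0382).

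Other genes on either side of the receptors were read from the RefSeq gene table, within 1 Mb of the receptor gene. Around Drd1, 18 other genes were tested; between D1 and D2 controls, where 25.1% of the array were called, 0 were higher and 2 lower in D1 arrays, Rnf44 (-0.33, adjusted p = 0.000841) and Higd2a (-0.20, adjusted p = 0.0204). The next protein-coding gene beyond Sfxn1 is Hrh2, the histamine H2 receptor, which had a difference of 0.19 ± 0.08 in controls (adjusted p = 0.079) and was higher in D1 mutants than in D2 mutants by 0.33 (adjusted p = 0.00111). After it, Cplx2, a regulator of vesicle fusion, was not called in either. On the other side of Drd1, the nearest protein-coding gene, Msx2, lay under the filter in the arrays, with means from 4.50 to 4.56. The long non-coding E130119H09Rik lies between Msx2 and Drd1 and was tested, close to the floor of 6. Its means were 6.54 in D1 mutants and 6.03 in D1 controls, against 5.89 in D2 mutants and 6.05 in D2 controls. Around Drd2, 8 other genes were tested, and 1 was lower in D1 controls, against the same 25.1%, the RNA-binding protein gene Rbm7 (-0.43, adjusted p = 0.00063). On the side of Drd2 away from Ttc12, Tmprss5 lay under the filter at means from 4.95 to 5.08. The medians over these neighbours were -0.03 around Drd1 and -0.01 around Drd2, against -0.03 for the whole array. Between mutants, 5 of the 18 genes around Drd1 were higher in D1 arrays (Sptlc1, Hrh2, Gprin1, Unc5a and the long non-coding E130119H09Rik, by 0.27 to 0.67) and 3 were lower. Around Drd2, 3 of 8 were lower in D1 mutants. Both counts lie near the 37.9% of the array called between mutants. Over all tested probe sets of these neighbours, the D1 minus D2 differences ran from -0.43 to 0.33 in controls and from -0.48 to 0.67 in mutants, all smaller than those of the receptors, Sfxn1 and Ttc12. Between mutants and controls in D1 arrays (3.04% of the array called), 1 of the 18 genes around Drd1 was called, E130119H09Rik, which rose by 0.53. Around Drd2, 0 of 8 were. In D2 arrays (9.19% of the array called), 1 of the 18 rose, Cltb by 0.53, and 1 fell, Unc5a by 0.46. Around Drd2, 1 of 8 rose, Gm5617 by 0.36. For the difference of the mutant effect (D2 minus D1), 2 of the 18 around Drd1 were called lower and 0 of 8 around Drd2 were called, against 0.710% of the array.

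**Figure D2:**
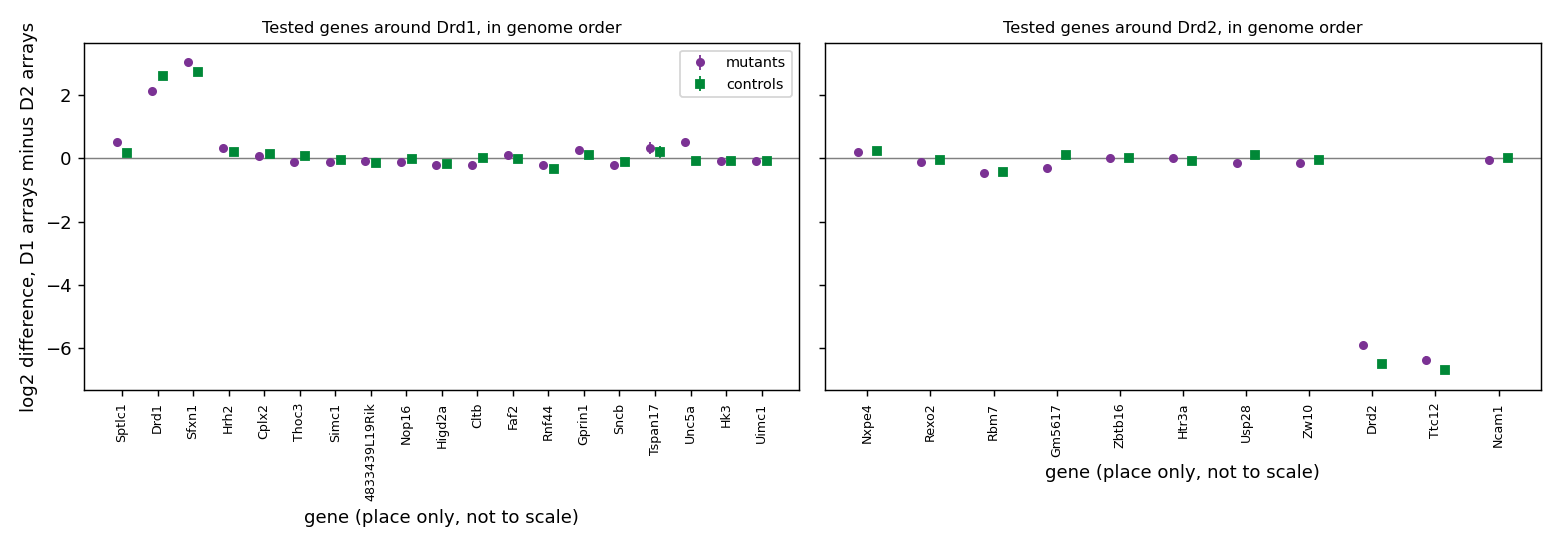
Log2 difference between D1 and D2 arrays (vertical axis) of the tested protein-coding genes within 1 Mb of Drd1 (left) and Drd2 (right), in genome order and not to scale, with 1 SE as bars. Circles are mutants and squares controls. Drd1 and Sfxn1 lie above 2, Drd2 and Ttc12 below -5, and the rest between -0.48 and 0.52. The non-coding E130119H09Rik is not drawn.

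The genes whose pattern over the 8 group means came closest to each member were found by the root mean square difference of centred log2 means, as a description. Ttc12 was under the floor in the 4 D1 groups, where its means are not known to be above background, so its distances are rough. Of 12016 other genes, Ttc12 was the closest to Drd2, at 0.236, followed by Gpr6, an orphan receptor of D2 neurons, at 0.650, then Grik3 (1.185), Nt5e (1.267) and Upb1 (1.512), against a median of 3.09. For Ttc12, Drd2 came first and Gpr6 second (0.801). For Drd1 the closest were Sntg2 (0.182), Ube2ql1 (0.211), Zfp521 (0.222), Gnb4 (0.241) and Hpcal1 (0.281), against a median of 1.216. For Sfxn1 they were Ebf1 (0.202), Rasgrf2 (0.210), Gnb4 (0.339), Sntg2 (0.364) and Drd1 (0.367), against a median of 1.465. Each gene entered by its reference probe set, 1456051_at for Drd1, and by it Sfxn1 was not among the 5 genes closest to Drd1. The second Drd1 probe set, 1455629_at, which had the larger difference between D1 and D2 arrays, was not ranked.

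In D2 arrays, the mutants had more Drd1 and less Drd2 mRNA than the controls. Drd1 1456051_at was at 10.42, 10.65, 10.37 and 10.29 in D2 mutant cocaine arrays, against 10.13, 9.72, 9.79 and 9.71 in D2 control cocaine arrays. In saline arrays it was at 10.61, 10.56 and 10.49 in mutants, against 10.50, 9.94 and 9.77 in controls. All cocaine mutants lay above all cocaine controls, while 1 saline control reached the saline mutants. Drd1 rose by 0.54 ± 0.11 in D2 mutants (adjusted p = 0.00181), with the drugs weighted equally. Drd1 1455629_at was at 9.71, 9.98, 9.88 and 9.53 in D2 mutant cocaine arrays, against 9.26, 8.97, 9.21 and 8.81 in the cocaine controls. In saline arrays it was at 9.94, 10.08 and 9.83 in mutants, against 9.67, 9.18 and 9.16 in controls, and mutants lay above controls under each drug. This probe set rose by 0.66 ± 0.10, or 1.58-fold (adjusted p = 5.97e-05).

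Drd2 was at 12.28, 12.71, 12.90 and 12.96 in D2 mutant cocaine arrays, against 13.06, 13.16, 12.94 and 13.10 in D2 control cocaine arrays. In saline arrays Drd2 was at 12.80, 12.91 and 12.83 in mutants, against 13.56, 13.26 and 13.60 in controls. Of the 7 mutants, 6 lay below all controls, and the exception was the array with the conflicting label. Drd2 fell by 0.49 ± 0.11 in D2 mutants, or 1.41-fold (adjusted p = 0.00467). Without that array the change was -0.54 ± 0.11 for Drd2 (adjusted p = 0.00314), and 0.56 and 0.70 for the Drd1 probe sets 1456051_at and 1455629_at (adjusted p = 0.00224 and 4.09e-05). In these bulk purifications, fewer cells of a type and less RNA per cell cannot be told apart. In cocaine arrays alone the Drd2 change was -0.36 (adjusted p = 0.276), and in saline arrays alone that of Drd1 1456051_at was 0.48 (adjusted p = 0.192).

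The neighbours were not called in D2 mutants against D2 controls. Ttc12 was at 11.53, 11.25, 11.67 and 12.13 in D2 mutant cocaine arrays, against 11.84, 11.63, 11.49 and 11.75 in cocaine controls, and at 11.44, 11.52 and 12.04 in saline mutants, against 12.01, 11.68 and 12.11 in saline controls. Mutants and controls overlapped, and the difference was -0.15 (95% interval -0.41 to 0.11, adjusted p = 0.516), or -0.23 without the array with the conflicting label (adjusted p = 0.245). Sfxn1 differed by -0.15 (interval -0.31 to 0.01) and 0.04 (-0.16 to 0.24) by its probe sets 1417560_at and 1417559_at. Ncam1 probe sets differed by -0.05 to 0.24, and 1450437_a_at had the lowest adjusted p, 0.107; it was called (0.24, adjusted p = 0.035) when D2 arrays were fitted alone, and with array weights (0.27, adjusted p = 0.039). The call share was 3 of 10 here, against 9.19% of the array.

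In D1 arrays, 0 of the 10 probe sets were called between mutants and controls, where 3.04% of the array were. An unadjusted p under 0.05 was found for 2542 of the 22530 tested probe sets, and for 1 of these 10, Sfxn1 1417560_at. It was at 13.29, 13.29, 13.08 and 13.33 in D1 mutant cocaine arrays, against 12.68, 13.19, 12.63 and 12.97 in D1 control cocaine arrays. In saline arrays it was at 12.93, 12.96 and 12.97 in mutants, against 12.87 and 13.02 in controls. The groups overlapped under each drug, and the difference was 0.19 (interval 0.02 to 0.37, adjusted p = 0.335). The second Sfxn1 probe set differed by 0.05 (-0.16 to 0.26). Drd1 differed by 0.06 (-0.19 to 0.30) and 0.12 (-0.10 to 0.34), Drd2 by 0.10 (-0.14 to 0.35) and Ttc12, under the floor, by 0.16.

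**Figure D3:**
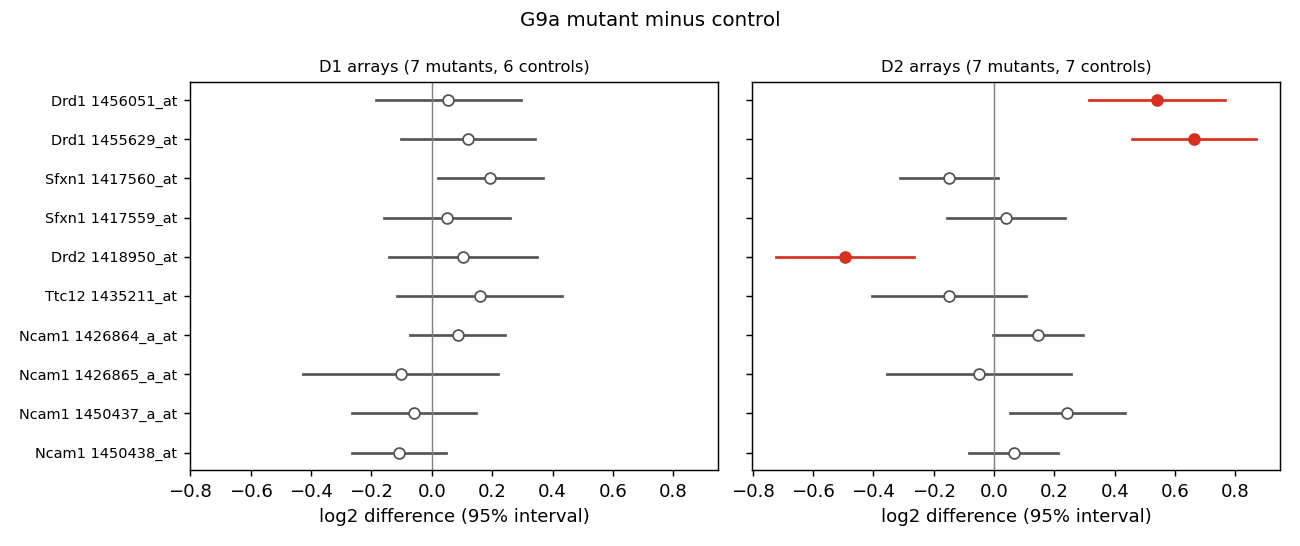
Log2 difference, G9a mutant minus control (horizontal axis), with its 95% interval, for the 10 tested probe sets in D1 arrays (left) and D2 arrays (right). Filled red points have an adjusted p under 0.05: both Drd1 probe sets (0.54 and 0.66) and Drd2 (-0.49), in D2 arrays.

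The effect in D2 was set against that in D1 in the same fit. The difference of the mutant effect (D2 minus D1) was 0.49 ± 0.16 and 0.54 ± 0.15 for the Drd1 probe sets 1456051_at and 1455629_at (adjusted p = 0.216 and 0.101) and -0.60 ± 0.16 for Drd2 (adjusted p = 0.103), and -0.34 ± 0.11 for Sfxn1 1417560_at (adjusted p = 0.22). Of the 10 probe sets, 0 were called, where 0.710% of the array were. An unadjusted p under 0.05 was found for 5 of them, against 2381 of the 22530 tested probe sets. Drd2 and Drd1 1455629_at were called without D1 control cocaine replicate 3 (-0.65, adjusted p = 0.0422, and 0.60, adjusted p = 0.03). Drd1 1455629_at was also called without D2 control saline replicate 1 (0.63, adjusted p = 0.0338).

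Markers of other cell types moved between D2 mutants and D2 controls too, and their part in the receptor changes was not tested. The counts below stand against 9.19% of the array called in this contrast. Among D1 neuron markers, the transcription factor gene Isl1 (0.98, adjusted p = 3.4e-06) and Slc35d3 (0.56, adjusted p = 0.0245) rose and the other 4 tested were not called, with the mean over the 7 markers at 7.26 to 7.54 in mutants, against 6.89 to 7.39 in controls. Among D2 neuron markers, Ptprm (0.55) and Upb1 (0.61) rose, and Penk (-0.001) and Gpr6 (-0.06) were not called. The cholinergic transcription factor gene Lhx8 rose by 1.17 (adjusted p = 1.12e-05) and Slc18a3 was at 0.37 (adjusted p = 0.184), while the defining marker Chat was under the floor in mutants (4.24 to 4.81) and in controls (4.35 to 4.68). The mean over the 6 cholinergic markers ran from 5.51 to 5.86 in D2 mutants, against 5.15 to 5.61 in D2 controls. The mean over the 4 dopamine neuron markers was 9.26 in the array with the conflicting label and 6.26 to 6.52 in the other 6 D2 mutants, against 5.58 to 5.83 in D2 controls, and both tested ones, Th and Ddc, rose. Among tested markers, 3 of 4 of oligodendrocytes (list mean 8.52 to 8.88 in mutants, 7.60 to 8.50 in controls), 1 of 5 of astrocytes (7.12 to 7.52, against 6.60 to 7.20) and 0 of 2 of microglia (5.73 to 5.98, against 5.43 to 5.99) rose. The mean over the 5 choroid plexus and ependyma markers ran from 6.67 to 7.16 in D2 mutants, against 5.90 to 7.12 in D2 controls. Of its tested members, Kl (6.90 to 7.15 in D2 mutants, 4.50 to 5.08 in D2 controls) passed the filter through mutant arrays alone and so had to differ, Clic6 rose by 0.44 (0.42 without the array with the conflicting label, adjusted p = 0.0538), and Ttr was not called.

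Beyond the receptors, genes of dopamine transmission were read from lists. Of the other dopamine receptors, Drd3 was under the filter (3.53 to 4.03 over the arrays) and Drd4 near it, with no call in the contrasts. Of 24 genes of dopamine signalling, 21 were tested. In D1 against D2 controls, where 25.1% of the array were called, 3 were higher, 11 lower and 7 not called, with a median of -0.27, against -0.03 over the array. Gnai1, an inhibitory G protein subunit, was higher by 1.45 (adjusted p = 6.7e-10) in D1 controls. Gng7, a subunit of the stimulatory striatal G protein, was lower by 0.67 in D1 controls (adjusted p = 4.97e-06), Gnb5, which pairs with RGS proteins, by 0.48, and Ppp1r1b, which encodes the dopamine-regulated phosphatase inhibitor DARPP-32, by 0.41. With cyclic loess normalisation, 50.6% of the calls of this contrast were higher in D1 controls, against 39.7% in the values as deposited. In mutants against controls, 0 of the 21 were called in D1 (3.04% of the array) and 1 in D2 (9.19% of the array), the arrestin gene Arrb1, which fell by 0.29 (adjusted p = 0.00618).

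Of 7 genes of dopamine synthesis, transport and breakdown, 4 were tested. Of these, 2 rose in D1 mutants, against 3.04% of the array called, and 3 in D2 mutants, against 9.19%. The calls in D2 mutants were the same without the array with the conflicting label. Th rose by 0.99 in D1 mutants (adjusted p = 0.0027) and by 1.46 in D2 mutants (adjusted p = 4.47e-06), or 1.27 without the array with the conflicting label (adjusted p = 3.6e-08). Th was at 7.12 to 7.80 in D1 mutants, against 5.85 to 7.08 in D1 controls, and at 7.54 to 8.10 in the D2 mutants other than the array with the conflicting label, against 6.48 to 6.78 in D2 controls. The groups did not overlap in either type. Maob, which breaks dopamine down, rose by 1.02 in D1 and by 1.44 in D2 mutants (adjusted p = 0.000886 and 1.88e-06). Ddc, which makes dopamine from its precursor, rose by 1.34 in D2 mutants (adjusted p = 0.000539), or 1.09 without that array (adjusted p = 4.63e-05), and differed by 0.76 in D1 mutants (adjusted p = 0.15). Outside that array, Slc6a3 and Slc18a2 stayed under the floor, at up to 5.89 and 4.29. Maoa was not called in either.

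Repeated cocaine gave no call among these genes: 0 of 10 probe sets in D1 arrays, where 0.368% of the array were called, and 0 of 10 in D2 arrays, where 0.0976% were. At an unadjusted p under 0.05 there were 1 in D1 and 3 in D2, against 2361 and 1837 of the 22530 tested probe sets. Sfxn1 1417559_at was at 12.48, 12.46, 12.23 and 12.45 in D1 mutant cocaine arrays, against 12.05, 12.05 and 11.96 in D1 mutant saline arrays, and at 11.76, 12.42, 12.62 and 12.17 in D1 control cocaine arrays, against 12.05 and 12.12 in D1 control saline arrays. Of the 8 cocaine arrays, 7 lay above the 5 saline arrays and 1 below them. Its difference was 0.27 in D1 (interval 0.07 to 0.48, adjusted p = 0.284) and 0.22 in D2 (0.03 to 0.42, adjusted p = 0.525), while the other Sfxn1 probe set differed by 0.11 and -0.01. Drd2 differed by -0.27 in D2 (interval -0.50 to -0.04, adjusted p = 0.497) and by -0.05 in D1. Drd1 differed by -0.18 and -0.23 in D2 and by 0.06 and 0.09 in D1, and Ttc12 by -0.14 in D2. Ncam1 differed by -0.11 to 0.03 in either type. Of the 21 signalling genes tested, 0 were called for cocaine in either.

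**Figure D4:**
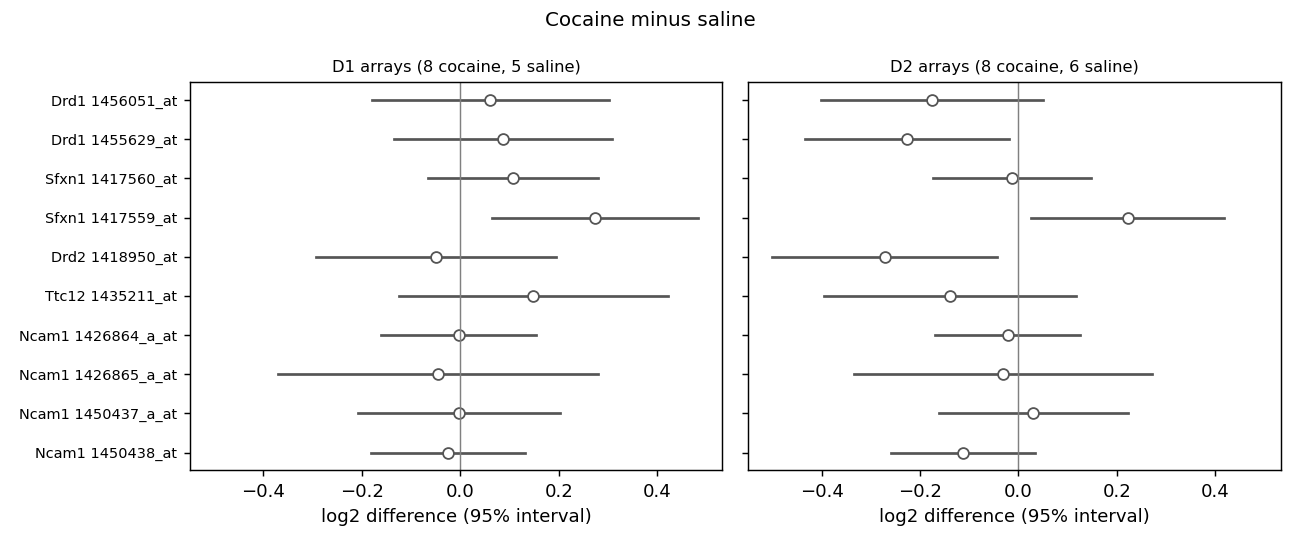
Log2 difference, cocaine minus saline (horizontal axis), with its 95% interval, for the 10 tested probe sets in D1 arrays (left) and D2 arrays (right). Open points have an adjusted p of 0.05 or more, which holds for each of them, and the differences run from -0.27 to 0.27.

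Whether cocaine acted differently in mutants and controls was tested as well. In D1 arrays the 10 differences of the cocaine effect ran from -0.28 to 0.37, with the lowest adjusted p at 0.389. In D2 arrays they ran from -0.06 to 0.27, with the lowest at 0.974. By limma, 0% of the array were called in each, with 2674 and 1118 probe sets at an unadjusted p under 0.05, and no array-wide call can be set against these values.

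By group mean, Drd2 ran from D2 control saline (13.47 ± 0.18, SD, n = 3) through D2 control cocaine (13.07 ± 0.09, n = 4), D2 mutant saline (12.84 ± 0.06, n = 3) and D2 mutant cocaine (12.71 ± 0.31, n = 4) to the D1 groups (6.72 to 6.88). The D2 control groups did not overlap each other or D2 mutant saline, and the D2 mutant groups overlapped, as did the D1 groups. Drd1 1456051_at ran from the D1 groups (12.50 to 12.71, overlapping) through D2 mutant saline (10.55 ± 0.06), D2 mutant cocaine (10.43 ± 0.16) and D2 control saline (10.07 ± 0.38) to D2 control cocaine (9.84 ± 0.20), with neighbours in the order overlapping within each type.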

How the data were processed

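The authors deposited log2 values of 45101 probe sets on 27 Affymetrix mouse arrays. The submitters' processing notes name RMA and Affymetrix Expression Console 1.1; the series' design text names global scaling of the scans, and the build behind the probe design is not given in the sources used here. Probe sets were named by GEO's platform annotation, with older symbols updated through the Entrez ID: 34945 carried 1 symbol, 932 several and 9160 none, and 64 were controls. The 27 arrays entered 1 fit in limma 3.58.1 (R 4.3.3), with a mean for each of 8 groups, on the 22530 probe sets above 6 in at least 3 arrays. Contrasts weighted the groups equally, Benjamini-Hochberg adjustment ran over all tested probe sets of a contrast, and "called", "rose" and "fell" mean an adjusted p under 0.05. The fit was tested on simulated data. A gene's reference probe set is the one with the highest mean. The rule for naming genes took every probe set of the 6 genes, their neighbours within 1 Mb, the 5 closest profiles, and up to 4 genes of each list by p. The members, lists and tests were chosen with earlier results of these data known. The labels give 2 to 4 mice per genotype and drug, as many as there are arrays per group, and this number limits the precision. No 2 arrays were the same (smallest mean absolute difference 0.138). Alternatives covered the probe set, filter, normalisation, moderation, weights, replicate block, RNA quality, labels and arrays left out; 2 of them (without arrays high in Ttr, and without these and the array high in dopamine neuron markers) were chosen after the data were seen.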

Additional observations from a re-analysis of the deposited data

Results flagged for a closer look

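In groups of 4 arrays, 52 combinations of probe set and group were examined for an array far from the other 3 by Dixon's test at 95%, and 3 were found; chance gives about 1 in 20. Sfxn1 was low in D1 mutant cocaine replicate 3 by both probe sets: 13.08 against 13.29 to 13.33 in the other 3 arrays (1417560_at), and 12.23 against 12.45 to 12.48 (1417559_at). Ncam1 1425126_at, under the filter, was at 4.15 in D2 mutant cocaine replicate 2, against 4.27 to 4.28 in the others.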

How the results depend on the processing

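Over the 43 alternative settings, 667 of 669 values of the differences called among these genes kept their direction and call; the exceptions were Drd1 1456051_at in D2 mutants in saline arrays alone (0.48) and Drd2 in D2 mutants in cocaine arrays alone (-0.36), where fewer arrays were fitted. Most of the called differences were between D1 and D2 arrays, and both exceptions lay among those of D2 mutants against D2 controls. Settings that changed only the filter or the moderation could not change the size of a difference. Nor could those that only left out arrays of groups outside the contrast. The array with the conflicting label was left out under more than 1 setting. Of 3037 values of differences not called, 118 changed sign and 18 became calls.
Those calls were of the difference of the mutant effect for Drd1 and Drd2 and of Ncam1. With array weights the difference was called for both Drd1 probe sets (0.53 and 0.55) and Drd2 (-0.57), as was Ncam1 1450437_a_at in D2 mutants (0.27), with the RNA quality covariate for Drd2 (-0.64), and without the 3 arrays high in Ttr for Drd1 1455629_at (0.59, adjusted p = 0.0477) and Drd2 (-0.70, adjusted p = 0.0438).
Counts over the array moved by more than 1.5 times as follows, against 5660 (D1 minus D2 in controls), 8539 (in mutants), 685 and 2071 (mutant minus control in D1 and D2), 160 (difference of the mutant effect), 83 and 22 (cocaine in D1 and D2). With 1 probe set per gene, 3480 and 5091 were called between D1 and D2 in controls and mutants. Array weights gave 1537, 3386 and 503 for the mutant effects and their difference, 1037 and 204 for cocaine, and 316 for the difference of the cocaine effect in D1. Cocaine arrays alone gave 2931, 5082, 382, 886 and 51, and saline arrays alone 3301, 4925, 330, 581 and 37, for the first 5 contrasts. A fold of at least 1.5 left 1165, 1745, 284, 473, 37 and 5, in the order above without the difference. With the conflicting array counted as a control, 1162 were called in D2 mutants and 23 for the difference. For cocaine in D1, cyclic loess gave 40, median centring 50, a trend 160 and D1 arrays alone 24. For cocaine in D2, the count was 10 without the filter, 6 with median centring, 51 with the RNA quality covariate, 14 without the conflicting array, 2 with D2 arrays alone, 9 without the 3 arrays high in Ttr, and 7 without these and the conflicting array.
Leaving out 1 array gave 3513 to 6647 calls between D1 and D2 in controls (lowest without D1 control saline replicate 2), 7599 to 9351 in mutants, 432 to 699 for the mutant effect in D1 (lowest without D1 control saline replicate 1), 1530 to 2608 in D2, 77 to 187 for the difference (77 and 98 without D1 control saline replicates 1 and 2), 6 to 181 and 2 to 40 for cocaine in D1 and D2, and 0 to 48 and 0 to 1 for the difference of the cocaine effect (48 without D1 control cocaine replicate 3).
Of the differences that changed sign, none was called. They were for Sfxn1 1417559_at -0.008 (cyclic loess) and -0.035 (saline arrays) in D2 mutants, -0.064 in D1 mutants (saline arrays), and 0.002 (median centring) and 0.029 (saline arrays) for the difference of the mutant effect; for Drd1 1456051_at -0.099 in D1 mutants (saline arrays) and -0.029 for cocaine in D1 (cyclic loess); for Sfxn1 1417560_at for cocaine in D2 0.028 (cyclic loess), 0.009 and 0.008 (without 3 and 4 arrays); for Ttc12 0.004 for cocaine in D2 (array weights); and for Drd2 0.027 for cocaine in D1 (RNA quality covariate). Leaving out 1 array gave -0.03 to 0.114 and -0.003 to 0.075 for Sfxn1 1417559_at in D1 and D2 mutants and -0.074 to 0.07 for their difference, -0.009 to 0.121 for Drd1 1456051_at in D1 mutants, and for cocaine -0.005 to 0.125 for Drd1 1456051_at and -0.104 to 0.017 for Drd2 in D1, and -0.043 to 0.034 for Sfxn1 1417560_at in D2. The other 89 changes of sign were in Ncam1 and in differences given as ranges. The cause of these shifts was not tested.
Deviations of same-numbered mutant and control arrays of the same type and drug correlated at -0.355 to 0.218, with 5 of 13 pairs over 0.1. Arrays of different types or drugs were not compared, so whether the numbers pair arrays was not settled. With a replicate block 38 were called for cocaine in D2. The other contrasts gave 5719, 8652, 696, 2148, 168 and 85 in the order above. Without detection calls, values near the floor of 6 limit what can be read from Ttc12 and Drd2 in D1 arrays.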
